A study of Mus musculus with 15 samples.

Results

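Cells given diphenyl iodonium together with dinitrofluorobenzene (DPI + DNFB, 3 arrays) were set against cells given hydrogen peroxide (H2O2, 3 arrays). These 6 arrays were chosen by their titles from the 15 arrays of the series, which has 5 groups of 3: DPI + DNFB, H2O2, DNFB, DPI and non-treated. In all 5 groups the cells are, per the labels, dendritic cells of 1 line, which was made from newborn A/J mouse epidermis, so every value comes from that line. The series' design text names DNFB as the allergen class under study, DPI as an inhibitor of reactive oxygen species, and a vehicle arm, while the sample titles call that arm non-treated. Doses, exposure times and the name of the line are not given in the labels. Whether replicate arrays stand for separate cultures is not stated either, and p-values therefore reflect array-to-array spread that may be technical.

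The comparison asks how an allergen given under an oxidant-blocking compound differs from an oxidant given by itself. The groups differ in 3 agents at once (DPI, DNFB and H2O2), and the part of each agent cannot be told apart within this comparison. For that reason the non-treated, DNFB and DPI arrays are given beside some values as a description. Where both groups are set against the non-treated arrays, they share those arrays.

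DNFB is a contact allergen that binds covalently to protein thiols and amines. H2O2 is a small oxidant that crosses membranes and oxidises cysteine residues. DPI blocks flavin-containing enzymes, among them NADPH oxidases and complex I of the mitochondrial respiratory chain. In cells that meet electrophiles or oxidants, the transcription factor NRF2 escapes its thiol-bearing partner KEAP1 and turns on glutathione and thioredoxin genes. Dendritic cells that sense danger also activate NF-kB and MAP kinases, raise costimulatory molecules such as CD80, CD83 and CD40, and release cytokines to instruct T cells.

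The arrays differ in quality marks that have to be kept beside every result. The beta-actin control probe sets gave a ratio of 3' signal to 5' signal of 2.07, 1.504 and 2.288 on the DPI + DNFB arrays, against 1.26, 1.31 and 1.41 on the H2O2 arrays. The means were 1.95 ± 0.405 with DPI + DNFB and 1.33 ± 0.0764 with H2O2 (SD, n = 3 each; exact two-sided permutation p = 0.1, the smallest that 3 against 3 arrays allow). For Gapdh the ratio was 1.09, 0.952 and 1.27 with DPI + DNFB and 0.851, 0.922 and 0.868 with H2O2 (exact two-sided permutation p = 0.1). No array of the DPI + DNFB group overlapped an H2O2 array in either ratio, and its replicate 2 lay closest, as the plot of the control ratios shows. As background, the ratio grows when RNA is broken or incompletely copied. Its part in the differences below was not tested. Counts from a fit with the log2 actin ratio as a covariate are therefore given beside the gene groups they change, and so are some counts from a fit in which replicate 2 alone stands for the DPI + DNFB group. That fit takes its spread from the other groups and assumes that the lone array varies like theirs. The actin ratio separates the 2 groups, so as a covariate it shares part of their difference and makes the estimate less precise. Whether a call that ends with the covariate reflects RNA quality was not tested.

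**Figure D1:**
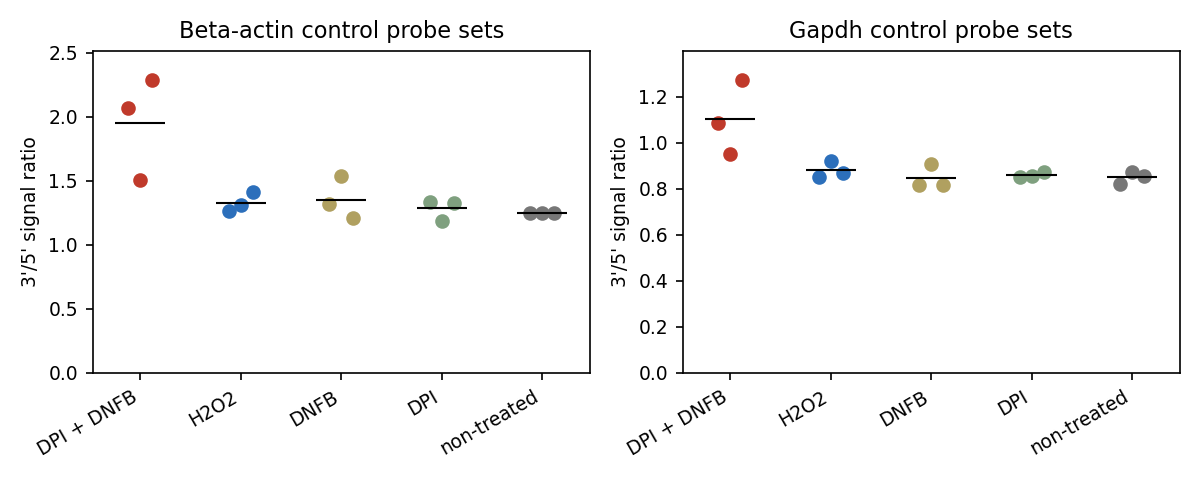
Ratio of 3' to 5' signal of the beta-actin (left) and Gapdh (right) control probe sets on each of the 15 arrays (points) with the group mean (line); both vertical axes start at 0. The DPI + DNFB arrays lie between 1.504 and 2.288 for actin, against 1.26 to 1.41 on the H2O2 arrays.

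Across the 45037 probe sets other than controls, the DPI + DNFB arrays correlated with each other at r = 0.916 to 0.927, and the H2O2 arrays at 0.942 to 0.946. Pairs across the 2 groups had r = 0.899 to 0.921 (probe sets are not independent replicates). Over the tested genes, the median SD between replicate arrays was 0.254 on the log2 scale with DPI + DNFB and 0.210 with H2O2. All 25 markers listed for dendritic cell identity passed the signal filter. Their summed rescaled signal was 236850.3 to 265428 on the DPI + DNFB arrays, 230742 to 236413 on the H2O2 arrays and 239295 to 250770.2 on the non-treated arrays. Of markers of other skin cells on the array, 4 of 14 keratinocyte, 5 of 14 fibroblast and 6 of 9 melanocyte genes passed the filter. By design it kept 27022 of 45037 probe sets. The 9 melanocyte markers summed to 1649 to 2785 with DPI + DNFB, 1633 to 1942 with H2O2 and 2959 to 3422 on non-treated arrays. For the 14 fibroblast markers the sums were 1221 to 1908, 1122 to 1484 and 1081 to 1392. The 14 keratinocyte markers summed to 727 to 1322 on the DPI + DNFB arrays and 846 to 890.5 on the H2O2 arrays, which overlap, and none of the 4 that were tested passed. The 9 T cell markers summed to 3842 to 4339 with DPI + DNFB and 2931 to 3359 with H2O2, and 1 of the 5 tested, Zap70, was higher. The 13 neutrophil and mast cell markers summed to 961 to 1421 with DPI + DNFB and 949 to 1073 with H2O2, with Ltf higher and Mpo lower. What part these cells or genes have in other results was not tested. As RNA came from whole cultures, fewer cells of a type and less RNA per cell cannot be told apart.

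Signals are the authors' MAS5 intensities, rescaled so that every array has the same 2% trimmed mean of 500, because the deposited arrays had a trimmed mean of 250 in 6 cases (every replicate 1, and replicate 3 of DNFB) and of 500 in 9. Log2 fold changes are DPI + DNFB minus H2O2 on the log2(signal + 15) scale, which understates the folds of dim genes. A gene passed at an adjusted p below 0.05 (limma, Benjamini-Hochberg over 12701 genes).

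Of the 12701 genes tested, 2875 (22.6%) were higher with DPI + DNFB and 2330 (18.3%) were lower, 41.0% in all. At least 2-fold differences made up 6.99% (888 genes higher) and 5.84% (742 genes lower), and 52 higher and 88 lower genes differed at least 4-fold. In 3415 genes (26.9%) all 3 DPI + DNFB arrays lay above all 3 H2O2 arrays, and in 2559 (20.1%) they lay below them. The balance of directions depended on the scaling: with each array centred on its median log2 signal, 1525 genes were higher and 3193 lower, so that the share of higher calls was 32.3%, against 55.2% with the trimmed mean. That scaling moves the median of all genes by 0.231, to -0.09, against 0.141 with the trimmed mean. Of the genes at least 2-fold different, 770 of 888 higher and 742 of 742 lower were called the same way with median centring. Within the arrays deposited at 500, which hold replicates 2 and 3 of DPI + DNFB and of H2O2, 2189 genes were higher and 1790 lower. Those deposited at 250 hold only replicate 1 of DPI + DNFB and of H2O2. A fit within them takes its residual spread from the 2 DNFB arrays alone, and its median log2 fold change over all genes was 0.101. With the actin ratio as a covariate 1241 were higher and 1216 lower.

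The 12 largest rises and falls were taken only from called genes with a minimum mean signal in either group and arrays that did not overlap. The lack of overlap, and some signal with H2O2 among the falls, therefore follow from that choice. Traf1, an adaptor of TNF receptors that NF-kB induces, had signals of 30.6, 39.6 and 147 with DPI + DNFB and 1651, 1698 and 1350.3 with H2O2. The groups were far apart, with DPI + DNFB replicate 3 the highest of its group, and the fold was 21.3 (log2 -4.41 ± 0.316 SE, adjusted p = 4.64e-09). The mean over all kept probe sets of Traf1 gave a log2 fold change of -2.48. Trib1, a pseudokinase that steers protein degradation, had 14, 59.9 and 26.3 with DPI + DNFB against 719.6, 859 and 734 with H2O2 (log2 -4.13 ± 0.529; -2.54 over the mean of its probe sets). Havcr2, which encodes the inhibitory receptor TIM-3, had 39.4, 137 and 144 with DPI + DNFB against 1561, 1921 and 1813 with H2O2 (log2 -4.02 ± 0.328). Ptx3, a secreted pattern recognition protein, had 975, 1252 and 1051 with DPI + DNFB against 8810.0, 10023 and 11597 with H2O2 (log2 -3.20 ± 0.152; -1.86 over the mean of its probe sets). The others among the 12 were Fam167a, Cldn34c1, Srxn1, Trp53rkb, Rusc2, Plek2, Ndrg4 and Rhov, with log2 fold changes between -3.91 and -2.86. The signals of Trp53rkb with DPI + DNFB (5.26, 8.41 and 5.52) were under the added 15, so its fold rests on that number (log2 -2.13 with 50 added). Rhov had a log2 fold change of -1.497 within the arrays deposited at 250, and its call ended with the Gapdh ratio as a covariate (-2.23).

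The 12 largest rises were mostly of genes at low signal with H2O2. Mlxipl, which encodes the glucose-sensing factor ChREBP, had 690.5, 299 and 429 with DPI + DNFB and 69.4, 15.6 and 17.3 with H2O2 (log2 3.40 ± 0.542, adjusted p = 4.96e-05). Chtf18, a subunit of a clamp loader for sister chromatid cohesion, had 348, 216 and 333 with DPI + DNFB and 37.7, 31.2 and 8.9 with H2O2 (log2 2.99 ± 0.514). No array of one group reached the other in either gene, as the choice of these genes required. The call of Chtf18 ended with the actin covariate (log2 2.06, adjusted p = 0.0721). Rgs11, a regulator of G protein signalling, had 496, 385 and 426 with DPI + DNFB and 79.1, 38.4 and 42.3 with H2O2 (log2 2.76 ± 0.392). The remaining rises were of Wbp2nl, Lncpint, Fgfr2, Slc13a2, Spaca4, Fos, Fam160a1, Nckap5l and the mitotic kinesin Kif20a, with log2 fold changes of 2.99 to 2.43. With the actin covariate the calls of Fgfr2, Slc13a2, Spaca4, Fam160a1 and Nckap5l ended, at adjusted p of 0.0525 to 0.0898, while those of Mlxipl, Wbp2nl, Rgs11, Fos and Kif20a held under each alternative on rescaled values that tested them (the 60th percentile filter left out Mlxipl, Wbp2nl and Rgs11).

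Gene groups moved in different directions, which the plot of gene lists summarises. Mitosis and DNA replication genes lay at the top, and NF-kB subunits, the aryl hydrocarbon receptor pathway, feedback inhibitors of growth signals, maturation genes and NRF2 targets at the bottom. Each list is read against the 22.6% of all genes that were higher, the 18.3% that were lower and the median of 0.141.

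**Figure D2:**
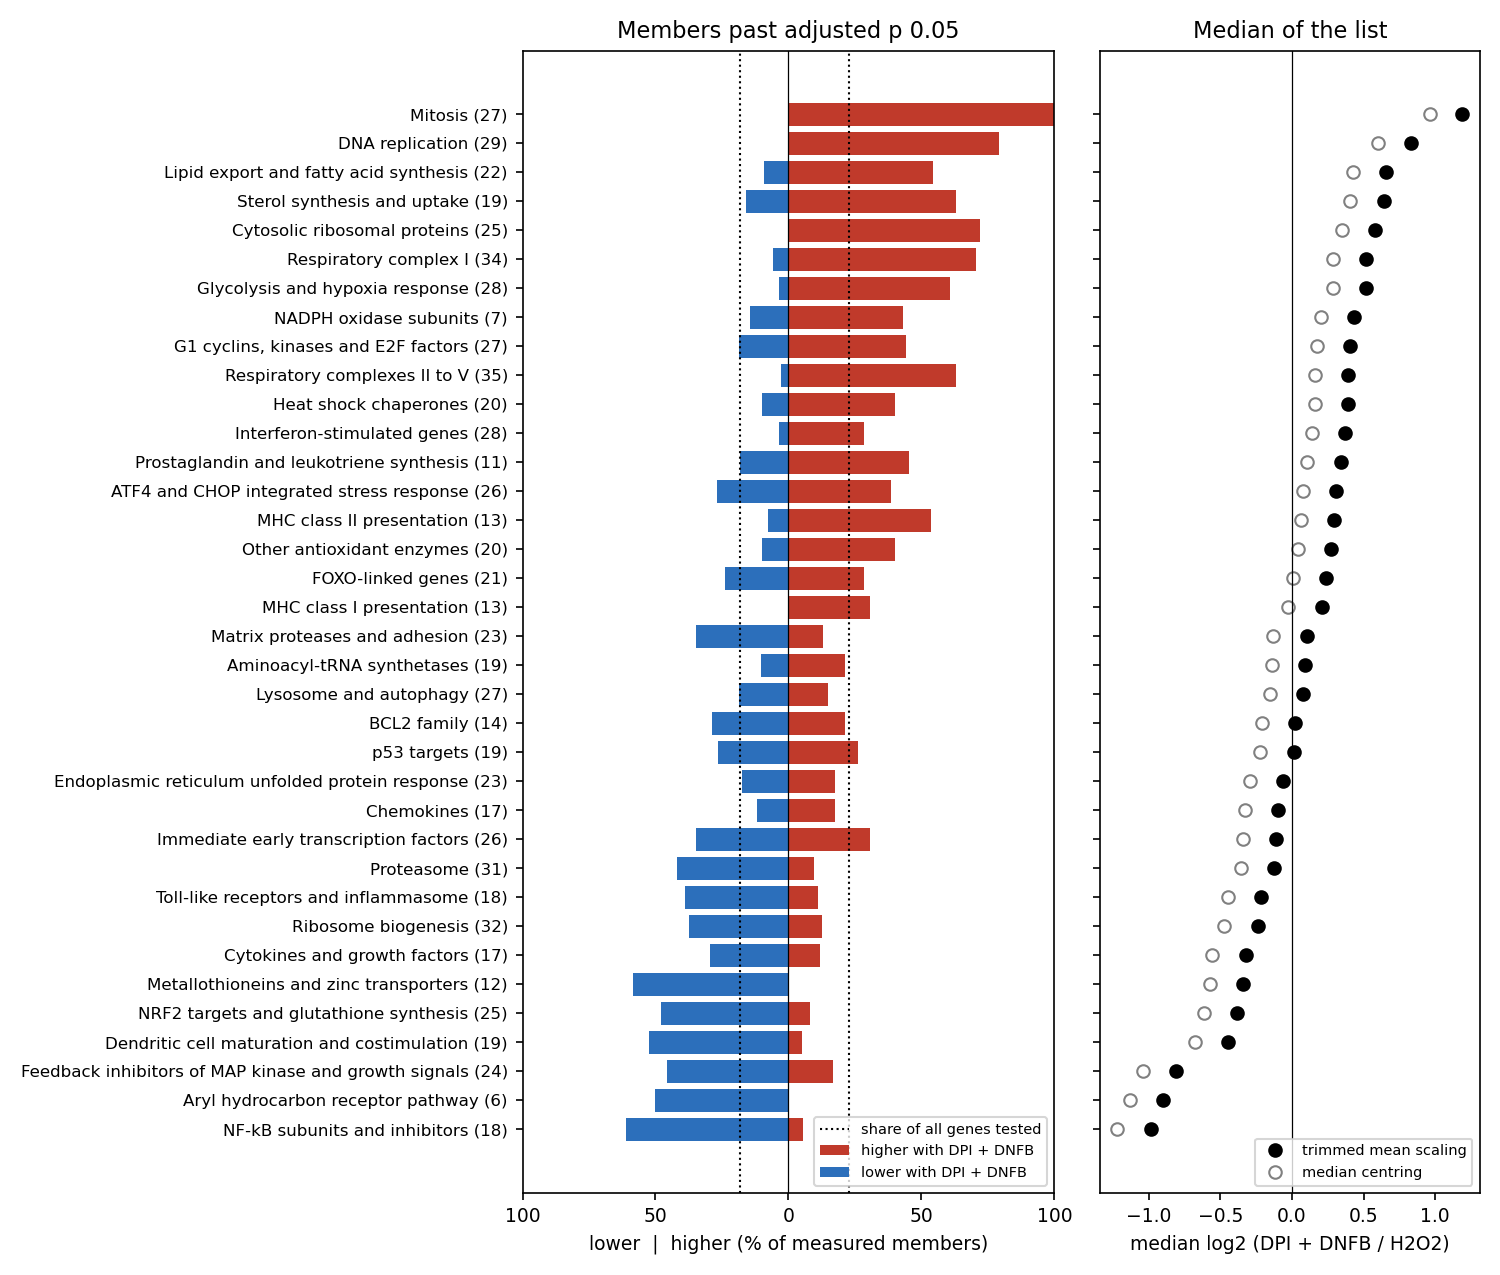
Left, percent of the measured members of each gene list (number in brackets) that were higher (right of 0) or lower (left of 0) with DPI + DNFB than with H2O2 at an adjusted p below 0.05; the dotted lines mark the shares over all genes tested, 22.6% and 18.3%. Right, the median log2 fold change of each list after trimmed mean scaling (filled) and after median centring (open). Mitosis has 27 of 27 members higher, and NF-kB subunits and inhibitors have 11 of 18 lower.

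NRF2 targets and glutathione genes were lower with DPI + DNFB: of 25 measured, 12 passed lower, 2 higher and 11 did not pass, with a median of -0.382. NRF2 binds as a dimer with a small MAF protein to antioxidant response elements, whose core is TGACNNNGC. That core, on either strand, lies within 250 bases before to 50 after the start of 5 of the 20 list members that have an entry in the RefSeq promoter table (25%), and of 14.7% of the tested genes with an entry. The 5 are Srxn1, Gstm5, Gclm, Me1 and Abcc4. Of these, Srxn1 and Gclm passed the test, and their windows are shown with the core in capitals (RefSeq, build GRCm38.p6, chr2:152105274-152105573 on the plus strand and chr3:122245307-122245606 on the plus strand, each written 5′ to 3′ along its gene). In both, the match is on the strand opposite to the gene. A match is a string of letters, not a bound site.
Srxn1: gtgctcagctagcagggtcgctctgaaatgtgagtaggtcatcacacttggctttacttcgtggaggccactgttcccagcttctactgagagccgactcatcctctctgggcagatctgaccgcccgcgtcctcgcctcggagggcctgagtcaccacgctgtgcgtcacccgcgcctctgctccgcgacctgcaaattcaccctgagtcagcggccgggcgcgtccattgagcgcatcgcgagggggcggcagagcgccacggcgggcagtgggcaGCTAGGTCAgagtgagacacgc
Gclm: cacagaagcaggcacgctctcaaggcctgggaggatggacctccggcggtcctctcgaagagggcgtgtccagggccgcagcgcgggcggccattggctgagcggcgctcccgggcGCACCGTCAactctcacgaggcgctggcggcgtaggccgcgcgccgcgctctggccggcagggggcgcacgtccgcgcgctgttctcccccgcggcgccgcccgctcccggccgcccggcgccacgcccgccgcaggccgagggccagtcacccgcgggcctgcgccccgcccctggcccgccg

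Srxn1, the enzyme sulfiredoxin that repairs over-oxidised peroxiredoxins, had 341, 367 and 383 with DPI + DNFB against 4413, 4134 and 3970.2 with H2O2. The 3 arrays of each group lay close together and the groups were 11.1-fold apart (log2 -3.47 ± 0.129 SE, adjusted p = 9.48e-13, the smallest adjusted p of the genes named here). Set against a non-treated mean of 1535, the log2 fold change was -2.04 with DPI + DNFB and 1.43 with H2O2, so the groups lay on opposite sides of the non-treated arrays. The means were 383 on the DPI arrays and 13937 on the DNFB arrays. Txnrd1, cytosolic thioredoxin reductase, showed the same arrangement, with 3813, 2944 and 3282 for DPI + DNFB, 11721, 11069 and 11733 for H2O2 and a non-treated mean of 6677 (log2 -1.78 ± 0.11, adjusted p = 9.57e-10).

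Hmox1, which degrades heme, had 1157, 889 and 403 with DPI + DNFB against 4566, 4503 and 2737 with H2O2 (log2 -2.34 ± 0.276, adjusted p = 1.83e-06). Both groups spread widely without meeting, and the DPI + DNFB arrays did not differ from the non-treated ones past the threshold (log2 -0.57, adjusted p = 0.122). Sqstm1, the selective autophagy receptor p62 that also sequesters KEAP1, had 2927, 3459 and 2732 with DPI + DNFB against 16899, 18709 and 15162 with H2O2 (log2 -2.47 ± 0.12; -1.30 over the mean of its probe sets). The subunits of the enzyme that starts glutathione synthesis were lower too. Gclm, the modifier subunit, had 1643, 1452 and 1816 with DPI + DNFB against 5096, 3895 and 4858 with H2O2 (log2 -1.48 ± 0.144), and Gclc, the catalytic subunit, had a log2 fold change of -1.39 ± 0.129. Against non-treated arrays Gclm was lower with DPI + DNFB (log2 -1.32) and had a value of 0.16 with H2O2 that did not pass. Slc7a11, the cystine transporter, was lower (log2 -1.099 ± 0.261), a call that ended with the actin covariate (-0.88, adjusted p = 0.154). Nqo1, a quinone reductase, did not pass (log2 -1.29, 95% interval -2.44 to -0.14, adjusted p = 0.0678), and its 6 signals were 111 or lower; without DPI + DNFB replicate 2, its highest array at 79.1, it passed (-1.91, adjusted p = 0.00809). Members on the other side were Gstp1, a glutathione transferase (0.63), and Tkt, the transketolase of the pentose phosphate pathway (0.81). Under the actin covariate 8 members were lower and 2 higher.

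Of 20 other antioxidant genes measured, 8 were higher with DPI + DNFB and 2 lower (median 0.271), among them the glutathione peroxidases Gpx4 (0.77) and Gpx1 (0.67) and the superoxide dismutase Sod1 (0.73). Catalase, Cat (-0.48), and Txnip, an inhibitor of thioredoxin (-1.04), were lower. With median centring 5 were higher and 3 lower, so the balance of directions depends on the scaling. Of the 7 measured subunits of NADPH oxidases, the enzymes that DPI is known to block, 3 were higher and 1 lower (median 0.434). Cyba (0.67), Ncf1 (0.46) and Rac2 (0.43) were higher and Rac1 (-0.4) was lower. For both Ncf1 and Rac1 another kept probe set pointed the opposite way. The counts were 1 and 1 with median centring and 1 and 0 with the actin covariate. The catalytic subunit Cybb had 144, 392 and 407 with DPI + DNFB and 71.9, 271 and 412 with H2O2. These values of Cybb overlap, and the difference did not pass (log2 0.45, 95% interval -0.65 to 1.55).

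**Figure D3:**
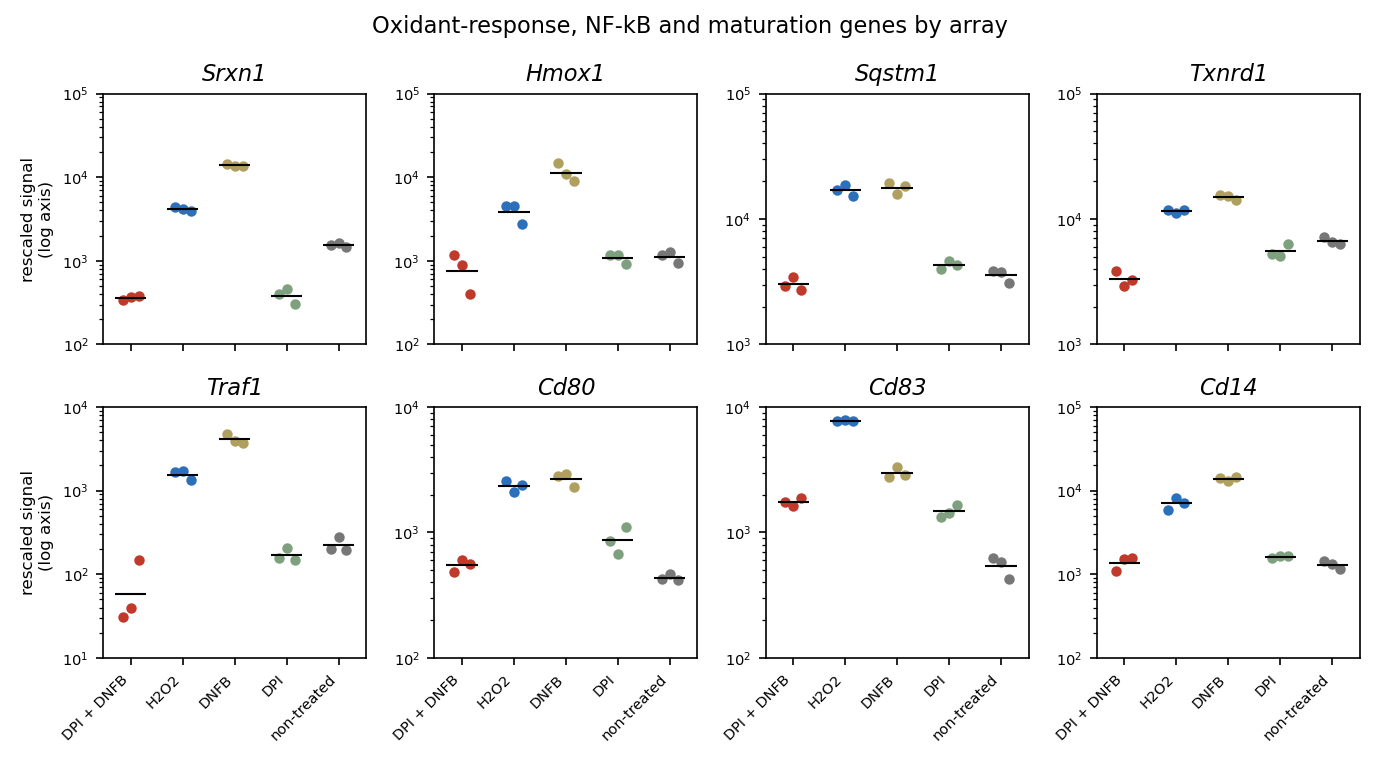
Rescaled signal (log axis) of 8 genes on each array of the 5 groups (points) with the geometric group mean (line). In each panel the 3 DPI + DNFB arrays lie below the 3 H2O2 arrays, for example at 341 to 383 against 3970.2 to 4413 for Srxn1.

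NF-kB subunits and inhibitors were lower as a group: of 18 measured, 11 were lower, 1 was higher and 6 did not pass, with a median of -0.985. NF-kB dimers are held in the cytoplasm by inhibitors, and many of the pathway's own members are its targets. Among the inhibitors, Nfkbie had 211, 281 and 462 with DPI + DNFB against 1806, 1275 and 1707 with H2O2 (log2 -2.33 ± 0.254, adjusted p = 7.23e-07). Nfkbia (-1.0), Nfkbib (-0.97) and the deubiquitinase Tnfaip3 (-0.77) were lower as well. Among the subunits, Rela had 1438, 1415 and 1383 with DPI + DNFB against 3128, 2906 and 3295 with H2O2 (log2 -1.13 ± 0.122), Rel had a log2 fold change of -2.06 and Relb of -1.63. Nfkb2 did not pass (0.17), and the atypical inhibitor Nfkbid was higher (0.83). Birc3, a ubiquitin ligase of TNF receptor complexes, had 2244, 2215 and 2562 with DPI + DNFB against 5688, 6552 and 6836 with H2O2 (log2 -1.44 ± 0.112; -0.73 over the mean of its probe sets). Set against the shared non-treated arrays, 7 members were higher and 3 lower with DPI + DNFB, and 13 were higher and 0 lower with H2O2 (limma; over all genes 15% and 18.7% with DPI + DNFB, 33.8% in all, and 10.9% and 17.4% with H2O2, 28.3% in all). With the actin covariate, and with DPI + DNFB replicate 2 alone, 11 members were lower and none higher. The NF-kB site (GGG, then 2 bases of any kind, then TTTCC, on either strand) was present in the start windows of 5 of 15 members with an entry (33.3%: Traf2, Tnfaip3, Rel, Nfkbia and Nfkb2) and in those of 1.55% of tested genes. Of the dendritic cell maturation genes, described next, 0 of 11 with an entry held it.

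Dendritic cell maturation genes included 10 lower and 1 higher of 19 measured (median -0.447). Cd83, a surface marker of mature dendritic cells that stabilises MHC class II, had 1742, 1618 and 1887 with DPI + DNFB against 7759.9, 7864 and 7767 with H2O2. Replicates agreed within each group and the groups were 4.44-fold apart (log2 -2.15 ± 0.133, adjusted p = 9.57e-10). Both groups lay above the non-treated mean of 536, with log2 fold changes of 1.68 with DPI + DNFB and 3.82 with H2O2. Cd80, a ligand of CD28 on T cells, had 484, 599 and 559.6 with DPI + DNFB against 2590.4, 2086 and 2405 with H2O2 (log2 -2.08 ± 0.158; -1.30 over the mean of its probe sets). Cd80 did not differ past the threshold between DPI + DNFB and non-treated arrays (log2 0.32, adjusted p = 0.128).

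Cd40, the receptor for T cell help, had 1241, 1245 and 1373 with DPI + DNFB against 3421, 2859.6 and 2976 with H2O2 (log2 -1.25 ± 0.139). Icam1, the adhesion ligand of LFA-1, had 3782, 3084 and 4359 with DPI + DNFB against 9673, 8734 and 8659 with H2O2 (log2 -1.28 ± 0.147), and Cd44, a receptor for hyaluronan, had a log2 fold change of -1.38 ± 0.146. The arrays of the groups did not meet in any of these 3 genes, as in 4875 of all 5205 called genes. Tnfsf4 (OX40 ligand, -1.12) and Tnfsf9 (4-1BB ligand, -0.71) were lower. Cd86, the second CD28 ligand, passed narrowly (log2 -0.45 ± 0.16, adjusted p = 0.0302), and the call ended under 10 alternatives, for example with quantile normalization (-0.36, adjusted p = 0.0952). Cd48, an adhesion ligand, was the 1 member that was higher (0.63). The inhibitory ligand Cd274, PD-L1, did not pass (-0.13). With the actin covariate 7 members were lower and 1 higher, and without single arrays 6 to 9 were lower.

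Receptors and effectors of innate sensing were mixed, with 7 lower and 2 higher of 18 (median -0.217). Cd14, the co-receptor for lipopolysaccharide, had 1093, 1509 and 1583 with DPI + DNFB against 5888, 8184 and 7181 with H2O2, while the non-treated mean was 1306 (log2 -2.34 ± 0.138, adjusted p = 6.07e-10). Pycard, the inflammasome adaptor ASC, went the other way, with 2699.5, 2825 and 3569 for DPI + DNFB and 1278, 1098 and 1418 for H2O2 (log2 1.25 ± 0.139). The actin covariate left 3 lower and 2 higher, and Tlr4, the lipopolysaccharide receptor, lost its call (log2 -0.61, against -1.27 without the covariate).

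Cytokines and chemokines had calls in both directions. Il23a, the p19 subunit of interleukin 23, had 42.9, 20.8 and 36.7 with DPI + DNFB against 502, 279.7 and 253 with H2O2 (log2 -2.86 ± 0.387, adjusted p = 8.26e-06). Cxcl3, a neutrophil chemokine, had 73.5, 55.7 and 61.7 with DPI + DNFB against 443, 259.6 and 462 with H2O2 (log2 -2.32 ± 0.312). Against non-treated means of 20.5 for Il23a and 36.2 for Cxcl3, the DPI + DNFB arrays did not pass (log2 0.42 and 0.61). Tnf was lower as well (log2 -1.63 ± 0.459, adjusted p = 0.00745), but not with the actin covariate (-1.16, adjusted p = 0.302). Against these, Il1b, the inflammasome-processed cytokine, had 1027, 980.3 and 949 with DPI + DNFB against 725, 422 and 414 with H2O2 (log2 0.95 ± 0.227). Within the arrays deposited at 250 the log2 fold change of Il1b was 0.49. Ccl2, a monocyte chemokine, had 1944, 1978 and 1495 with DPI + DNFB against 1156, 752 and 629 with H2O2 (log2 1.12 ± 0.22), and the chemokine receptor Cxcr4 had a log2 fold change of 1.78 ± 0.282. Ccl3 had 3231, 3096 and 2927 with DPI + DNFB against 5136, 4233 and 3518 with H2O2, and its difference did not pass (log2 -0.46, 95% interval -1.004 to 0.085), although it was called in 4 of 27 alternatives (adjusted p of 0.0222 to 0.0448). Of 17 measured chemokine genes 3 were higher and 2 lower (17.6% and 11.8%), and of 17 cytokines and growth factors 2 were higher and 5 lower (11.8% and 29.4%). Over all genes the shares were 22.6% and 18.3%.

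Immediate early transcription factors, which cells switch on within minutes without new protein synthesis, were high in both groups relative to the non-treated arrays and yet differed member by member. Of 26 measured, 18 were higher and 2 lower with DPI + DNFB, and 20 were higher and 1 lower with H2O2, each against the same non-treated arrays. Between the groups 8 were higher with DPI + DNFB, 9 were lower and 9 did not pass (median -0.113).

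Egr1, a zinc finger factor downstream of ERK, had 14104, 14116 and 10782 with DPI + DNFB and 10385, 23824 and 15408 with H2O2, against a non-treated mean of 468. The groups overlapped and the difference did not pass (log2 -0.28, 95% interval -1.15 to 0.60, adjusted p = 0.631). Jun had 6606, 6736 and 6408 with DPI + DNFB and 5290.3, 8904 and 5029 with H2O2 (log2 0.09, interval -0.34 to 0.52), and Atf3, a stress-induced repressor, had 1251, 1288 and 1434 with DPI + DNFB and 1565, 1948 and 1231 with H2O2 (log2 -0.23, interval -0.69 to 0.22). A p that misses the threshold does not show that the agents act alike on these genes, and the intervals give the differences the data allow.

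Fos, which pairs with JUN proteins in AP-1, was among the 12 largest rises, with 8521, 13692 and 9638 for DPI + DNFB and 1530.2, 2745 and 1443 for H2O2. Each DPI + DNFB array of Fos exceeded each H2O2 array (5.66-fold, log2 2.50 ± 0.279, adjusted p = 9.39e-07), and the DPI arrays had a mean of 8394. Klf4, a Kruppel-like factor, had 3208, 3380.0 and 2559.7 with DPI + DNFB against 943, 1154 and 798 with H2O2 (log2 1.65 ± 0.178). The orphan nuclear receptor Nr4a2 had 11119.7, 11552 and 11186 with DPI + DNFB against 3290.3, 3419 and 3629.6 with H2O2 (log2 1.71 ± 0.121), Egr2 had a log2 fold change of 1.79 and Nr4a1 of 1.33. On the other side, Myc, the growth regulator, had 1086, 1544 and 1199 with DPI + DNFB against 4689.6, 4884 and 5122 with H2O2 (log2 -1.94 ± 0.127), and the non-treated mean of Myc was 5751. Ier3, an apoptosis modulator induced by NF-kB, had 1176, 1457 and 1086 with DPI + DNFB against 5013, 5312 and 4172 with H2O2 (log2 -1.95 ± 0.179). Junb (-1.51) and Jund (-0.84), the other JUN family members, were lower, whereas Jun did not pass.

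**Figure D4:**
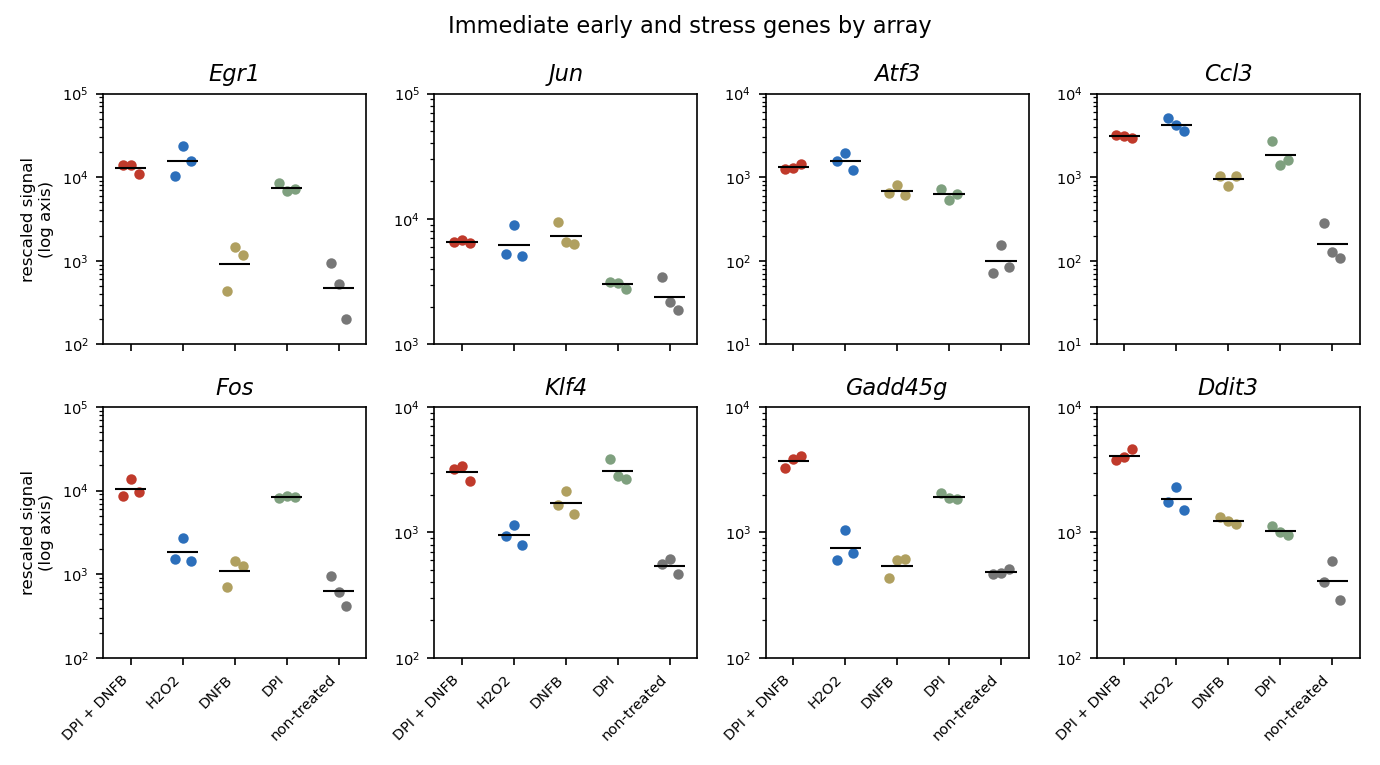
Rescaled signal (log axis) of 8 immediate early and stress genes on each array of the 5 groups (points) with the geometric group mean (line). DPI + DNFB and H2O2 arrays overlap for Egr1 and Atf3, and are apart for Fos, Klf4, Gadd45g and Ddit3.

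Feedback inhibitors of MAP kinases and growth factor receptors had 11 members lower and 4 higher of 24 (median -0.81). Dusp6, the cytoplasmic ERK phosphatase, had 1601, 2045 and 2048 with DPI + DNFB against 6092, 6730.5 and 6693 with H2O2 (log2 -1.78 ± 0.142, adjusted p = 1.52e-08), and the non-treated mean was 8912. Errfi1, an inhibitor of the EGF receptor, had 953, 1313 and 1077 with DPI + DNFB against 4686, 5755 and 4477 with H2O2 (log2 -2.15 ± 0.158), and Spred1, an inhibitor of RAS signalling, had a log2 fold change of -1.44 ± 0.124. Dusp1 did not pass (log2 -0.09, 95% interval -0.58 to 0.40). The 4 that were higher were Gadd45g, Dusp7 (1.71), Dusp10 (1.41) and Tob1 (0.65). Gadd45g, a stress sensor that activates p38 and JNK pathways, had 3255, 3832 and 4068 with DPI + DNFB against 603, 1049 and 686 with H2O2 (log2 2.27 ± 0.174). The actin covariate left 8 lower and 4 higher.

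The ATF4 and CHOP arm, which slows translation and raises amino acid genes, was up in both groups against the shared non-treated arrays (19 higher and 0 lower of 26 with DPI + DNFB, 19 and 1 with H2O2), and split between them, with 10 higher and 7 lower. Ppp1r15a, which encodes the GADD34 phosphatase subunit that restores translation, had 3966, 3382 and 3783 with DPI + DNFB against 1138, 1561 and 1063 with H2O2 (log2 1.57 ± 0.197, adjusted p = 3.64e-06). Ddit3, CHOP itself, had 3779.8, 3976 and 4593 with DPI + DNFB against 1765, 2286 and 1524 with H2O2 (log2 1.16 ± 0.19). Phgdh, the first enzyme of serine synthesis, had 30896, 23909 and 37697 with DPI + DNFB against 10895, 11959.8 and 13851 with H2O2 (log2 1.31 ± 0.145). The factors Atf4 (-0.78), Cebpb (-0.96), Cebpg (-1.07) and Atf5 (-0.60) were lower, and the pseudokinase Trib3 did not pass (0.33, 95% interval -0.29 to 0.96).

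Heat shock chaperones had 8 members higher and 2 lower of 20 (median 0.394), but 4 and 4 with median centring and 1 and 0 with the actin covariate. Hspa1b, an inducible HSP70, had 18069, 28411 and 23202 with DPI + DNFB and 9739.8, 17043 and 12562 with H2O2. Its lowest DPI + DNFB array lay just above its highest H2O2 array, and the difference did not pass (log2 0.84, 95% interval -0.23 to 1.90), although it passed in 3 of 27 alternatives, among them a fit of only the 6 arrays (adjusted p = 0.00422). Among chaperones of the endoplasmic reticulum and their sensors, 4 of 23 were higher and 4 lower (median -0.0649), against 2 and 9 with median centring.

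All 27 measured mitosis genes were higher with DPI + DNFB, with a median of 1.19, the highest median of the 36 pathway lists. Against the shared non-treated arrays the groups stood differently: 27 of 27 were lower with H2O2, whereas with DPI + DNFB 8 were higher, 1 was lower and 18 did not pass. The count was 24 of 27 with the actin covariate and with median centring, 25 with DPI + DNFB replicate 2 alone, and 25 to 27 when single arrays were left out. As background, many genes of this stage carry CCAAT boxes, bound by NF-Y, and a cell cycle homology region, TTTGAA, bound by the DREAM complex, near their starts. Of the 21 members with an entry in the promoter table, 18 held CCAAT (85.7%, against 38.4% of tested genes), 16 held TTTGAA (76.2%, against 12% of them) and 15 held both (71.4%, against 4.94%), on either strand. Windows of Cdc20, Cenpf and Cdca8 are shown, since these 3 mitosis members hold both motifs and are described next. CCAAT, or ATTGG on the other strand, and TTTGAA are in capitals, and in Cdca8 an ATTGG and the TTTGAA share letters (RefSeq, GRCm38.p6, chr4:118437294-118437593 on the minus strand, chr1:189688037-189688336 on the minus strand and chr4:124936868-124937167 on the minus strand, written 5′ to 3′ along each gene).
Cdc20: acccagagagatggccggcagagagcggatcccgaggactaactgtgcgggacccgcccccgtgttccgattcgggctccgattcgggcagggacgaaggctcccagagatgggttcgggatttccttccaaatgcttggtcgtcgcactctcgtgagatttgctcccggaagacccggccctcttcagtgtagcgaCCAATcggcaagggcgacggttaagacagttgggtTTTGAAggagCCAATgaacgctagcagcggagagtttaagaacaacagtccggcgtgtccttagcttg
Cenpf: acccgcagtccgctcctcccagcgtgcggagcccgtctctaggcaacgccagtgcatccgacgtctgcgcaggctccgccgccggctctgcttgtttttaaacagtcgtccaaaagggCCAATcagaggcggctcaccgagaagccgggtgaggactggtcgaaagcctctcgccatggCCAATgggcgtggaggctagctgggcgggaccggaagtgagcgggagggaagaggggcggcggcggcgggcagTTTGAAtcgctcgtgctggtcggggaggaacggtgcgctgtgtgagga
Cdca8: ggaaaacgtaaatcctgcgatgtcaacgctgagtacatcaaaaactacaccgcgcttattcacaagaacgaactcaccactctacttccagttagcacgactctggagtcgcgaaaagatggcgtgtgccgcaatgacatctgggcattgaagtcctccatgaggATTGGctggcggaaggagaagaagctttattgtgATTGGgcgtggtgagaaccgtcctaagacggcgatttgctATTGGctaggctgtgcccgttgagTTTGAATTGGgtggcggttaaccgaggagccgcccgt

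Cdc20, the activator of the anaphase-promoting complex, had 12549, 10541 and 14648 with DPI + DNFB against 2299, 2699.5 and 2533 with H2O2. The groups were 4.95-fold apart (log2 2.31 ± 0.138, adjusted p = 6.95e-10), and the non-treated mean of 5928 lay between them. Cenpf, a kinetochore protein, had 1564, 1483 and 1481 with DPI + DNFB against 477, 423 and 414 with H2O2 (log2 1.75 ± 0.127). The DPI + DNFB arrays of Cenpf did not differ past the threshold from its non-treated mean of 1409.7 (log2 0.097, adjusted p = 0.589). Kif20a, a kinesin of the central spindle, had 880.4, 1109 and 1032 with DPI + DNFB against 139.8, 224 and 168 with H2O2 (log2 2.43 ± 0.169). Cdca8, borealin of the chromosomal passenger complex, had 4172, 4422 and 4676 with DPI + DNFB against 1658, 1763 and 1609.9 with H2O2 (log2 1.39 ± 0.106), and its partner Incenp had a log2 fold change of 1.55 ± 0.127. The smallest difference in the list was that of the condensin subunit Smc4 (0.43).

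**Figure D5:**
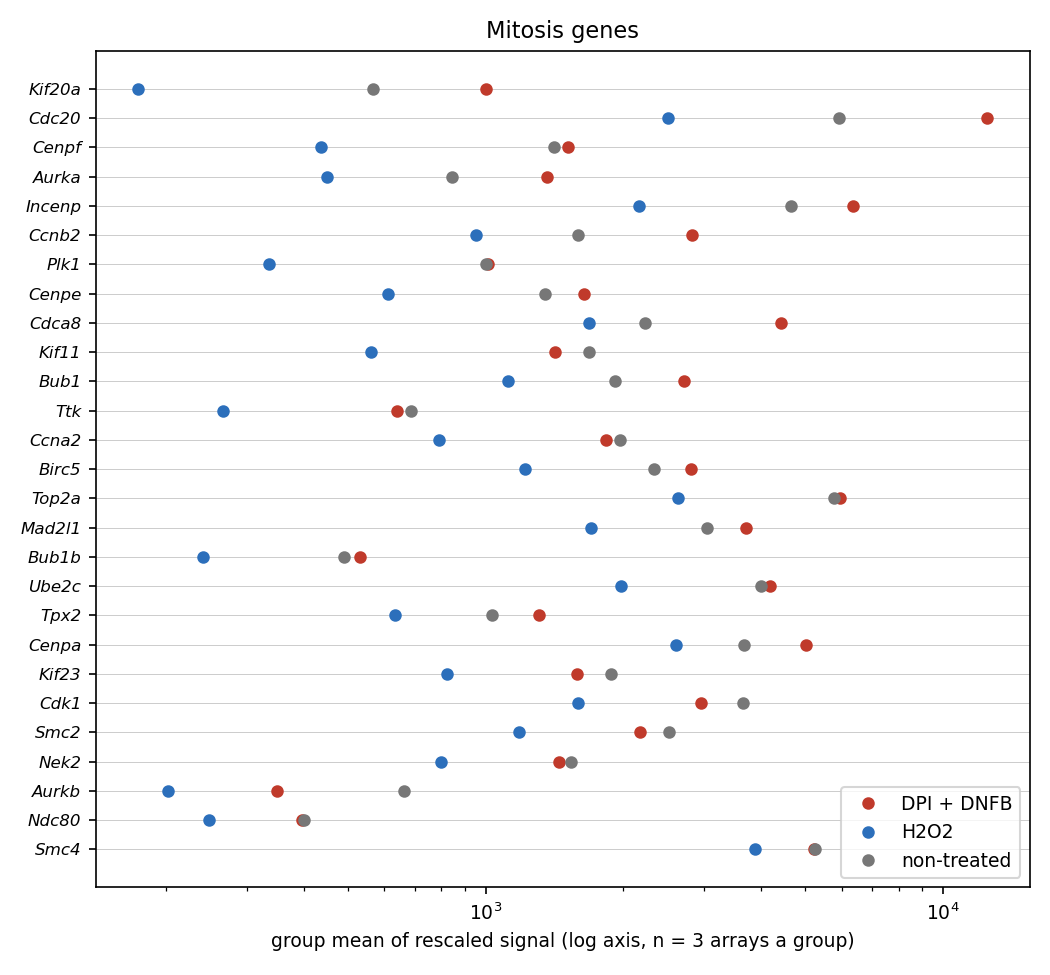
Geometric group means of rescaled signal (log axis) of the 27 mitosis genes with DPI + DNFB (red), H2O2 (blue) and no treatment (grey), ordered by the log2 fold change of DPI + DNFB over H2O2. In every gene the H2O2 mean is the lowest of the 3, while the DPI + DNFB mean lies on either side of the non-treated mean.

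Of 29 DNA replication genes 23 were higher and 0 lower (median 0.832; 16 higher with the actin covariate). Rrm2, the regulated subunit of ribonucleotide reductase, had 4664, 4391 and 5763 with DPI + DNFB against 1178, 1097 and 1371 with H2O2 (log2 2.01 ± 0.125, adjusted p = 9.73e-10; 1.31 over the mean of its probe sets). The DPI + DNFB arrays of Rrm2 straddled the non-treated mean of 4532. Of the MCM helicase subunits, Mcm5 had 11332, 9918 and 12747 with DPI + DNFB against 3898, 4434 and 4750.5 with H2O2 (log2 1.37 ± 0.113), and Mcm2, Mcm3, Mcm4, Mcm6 and Mcm7 had log2 fold changes of 0.73 to 1.26, all past the threshold. Pcna, the sliding clamp, did not pass (-0.20). The replication list held CCAAT in 15 of 24 windows (62.5%) and TTTGAA in 3 of 24 (12.5%).

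G1 regulators were divided, with 12 higher and 5 lower of 27 (median 0.407). Ccne1, the cyclin of S phase entry, had 1563, 944 and 1225 with DPI + DNFB against 381, 197 and 255 with H2O2 (log2 2.12 ± 0.243, adjusted p = 1.25e-06), and E2f1 was higher (1.35). The inhibitors moved both ways. Cdkn1a, p21, had 2238, 2264 and 2134 with DPI + DNFB against 8449, 9375 and 7159 with H2O2 (log2 -1.90 ± 0.133), over a non-treated mean of 1191, while Cdkn2d, p19, had 2881, 2815 and 2874 with DPI + DNFB against 1092, 1189 and 1102 with H2O2 (log2 1.33 ± 0.115). The D cyclins differed in sign too, with Ccnd3 higher (1.0) and Ccnd1 (-0.38) and Ccnd2 (-0.35) lower. Cdk6, a kinase that D cyclins activate, was lower (-1.43 ± 0.133).

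Cytosolic ribosomal protein genes and genes of respiration and sugar use had mostly higher calls with DPI + DNFB. Other lists of protein synthesis differed. Of 19 aminoacyl-tRNA synthetase genes 4 were higher and 2 lower (21.1% and 10.5%, against 22.6% and 18.3% over all genes). Ribosome biogenesis genes, given below, had 12 lower and 4 higher of 32. In the lists that follow, fewer were called with the actin ratio as a covariate, as was the case over all genes. Of 25 cytosolic ribosomal protein genes 18 were higher and 0 lower (median 0.579), of 34 complex I genes 24 and 2 (0.52), and of 35 genes of complexes II to V 22 and 1 (0.394). With the actin covariate the higher calls were 4 of 25, 13 of 34 and 5 of 35. Over all genes that fit kept 40.8% of the higher calls. Ribosomal protein genes (4 against 18) and complexes II to V (5 against 22) kept a smaller share. For complex I the higher calls numbered 13 against 24. With median centring the counts were 12 higher and 2 lower, 14 and 2, and 8 and 3. The highest rescaled signal of an array was 115400, 93630 and 132500 with DPI + DNFB, against 66120, 70730 and 73110 with H2O2. The part of RNA quality, and of this difference at the top of the scale, in these counts was not tested.

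Ndufs7, an iron-sulfur subunit of complex I near its quinone site, had 7705, 6829.6 and 9595 with DPI + DNFB against 2383, 2679 and 2789.9 with H2O2. Its groups were 3.04-fold apart and its call held under each alternative run on rescaled values (log2 1.60 ± 0.132, adjusted p = 2.33e-08). Ndufb7, an accessory subunit, had 14312, 12361 and 17876 with DPI + DNFB against 6330.3, 7840.2 and 6915 with H2O2 (log2 1.07 ± 0.123). The ATP synthase subunit Atp5e had 12616, 10644 and 11961 with DPI + DNFB against 6366, 6642 and 5805 with H2O2 (log2 0.90 ± 0.106), and the ribosomal protein gene Rps19 had 65348, 53459 and 71368 with DPI + DNFB against 32526, 34358 and 32368 with H2O2 (log2 0.93 ± 0.135; 0.60 with the actin covariate). Against the shared non-treated arrays 24 of 25 ribosomal protein genes and 23 of 34 complex I genes were higher with DPI + DNFB, and 4 and 1 with H2O2.

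Of 28 glycolysis and hypoxia genes 17 were higher and 1 lower (median 0.518; 9 higher and 0 lower with the actin covariate). Bnip3, a hypoxia-induced mitophagy receptor, had 9184, 8516 and 6177 with DPI + DNFB against 1649, 1838 and 1475 with H2O2 (log2 2.24 ± 0.224, adjusted p = 2.6e-07), and the DPI arrays had a mean of 7131. Car9, a carbonic anhydrase regulated by hypoxia-inducible factors, had 919.6, 602 and 869 with DPI + DNFB against 375, 283 and 207 with H2O2 (log2 1.43 ± 0.223). The enzymes Tpi1 (1.1), Hk2 (0.53) and Ldha (0.52) and the glucose transporter Slc2a1 (0.60) were higher, whereas Vegfa, the angiogenic factor that hypoxia induces, was lower (-0.67) and Pgk1 (0.12) and Aldoa (0.16) did not pass.

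Of 19 sterol genes 12 were higher and 3 lower (median 0.639), and of 22 lipid export and fatty acid genes 12 were higher and 2 lower (0.657). Srebf1, which encodes the factor SREBP1 that drives fatty acid synthesis, had 2602, 2861 and 2819.8 with DPI + DNFB against 960.5, 1521 and 882 with H2O2 (log2 1.33 ± 0.169, adjusted p = 4.27e-06). Its known targets Scd2 (1.35 ± 0.127), Acly (1.15) and Acaca (1.19) were higher. Mvk, mevalonate kinase, had 437, 439 and 450.2 with DPI + DNFB against 71.4, 154 and 44 with H2O2 (log2 2.26 ± 0.364). Msmo1 (-1.05), Sc5d (-0.71) and Sqle (-0.56), enzymes of late sterol synthesis, were lower. Abca1, the cholesterol exporter, was higher (1.41; 0.73 over the mean of its probe sets), and Abcg1, another exporter, was lower (-0.42). Under the actin covariate 5 sterol genes were higher and 0 lower, and 9 of the lipid export and fatty acid genes were higher and 0 lower.

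Among the 25 dendritic cell identity markers, 9 were higher and 6 lower with DPI + DNFB (median 0.112). Cd207, langerin of Langerhans cells, was the member with the largest fall (-2.05), and Irf8, a lineage factor, had 1689, 1557 and 1774 with DPI + DNFB against 4461, 4748 and 4581 with H2O2 (log2 -1.45 ± 0.121, adjusted p = 2.61e-08). Id2 (-1.01), Irf4 (-0.82) and the cytokine receptor chain Csf2rb (-0.90) were lower. Csf1r, the receptor of macrophage colony stimulating factor, had 11122, 10529 and 12202 with DPI + DNFB against 4990.2, 7149 and 5861 with H2O2 (log2 0.92 ± 0.12), and both groups were under the non-treated mean of 16149. Ptprc and Itgax, which encode CD45 and CD11c, did not pass (-0.02 and 0.11). With median centring 4 markers were higher and 9 lower.

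Antigen presentation genes had more higher than lower calls, and the balance depended on scaling. Of 13 MHC class II genes 7 were higher and 1 lower, and of 13 class I genes 4 were higher and 0 lower, but with median centring the class II counts were 2 and 2 and the class I counts 3 and 2. The class II invariant chain Cd74 was higher (0.52; 0.02 with quantile normalization), while H2-Ab1 (-0.02) and H2-Aa (-0.17) did not pass and the class II transactivator Ciita was lower (-0.73). The immunoproteasome subunit Psmb8 had 10923, 13252 and 9486 with DPI + DNFB against 5704, 7641 and 5025 with H2O2 (log2 0.88 ± 0.149, adjusted p = 8.93e-05), and Psmb9 (0.88) and Psmb10 (0.74) were higher too. Of 28 interferon-stimulated genes 8 were higher and 1, Irf8, was lower (median 0.37), a share of 28.6% higher against 22.6% over all genes. With median centring 4 were higher and 2 lower. The antiviral synthetase Oas2 had 2467, 2045 and 1553 with DPI + DNFB against 720.1, 819 and 438 with H2O2 (log2 1.62 ± 0.266), while Ifit1 (-0.39), Ifit2 (0.03) and Irf1 (-0.04) did not pass.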

How the data were processed

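The series holds 15 Affymetrix arrays of 1 mouse dendritic cell line, 3 for each of 5 groups taken from the sample titles. RNA was extracted and biotin-labelled with a 3' in vitro transcription kit, per the labels' protocols. The values are linear signal intensities that the authors deposited in one table; per the submitters' processing notes Expression Console (Affymetrix) and its MAS5 method produced them (versions are not given in the sources used here). Of 45101 probe sets, 64 controls were left out. Probe sets were named from the platform annotation: 34945 have 1 gene symbol, 932 several and 9160 none, and 34741 of the first matched a RefSeq gene ID.

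Each array was rescaled to a 2% trimmed mean of 500. Probe sets with a mean log2(signal + 15) at or above the 40th percentile were kept (27022), and the one with the highest mean stood for each of 12701 genes. limma 3.58.1 (R 4.3.3) was fitted to all 15 arrays with a group mean each, and contrasts were moderated with eBayes(trend = TRUE). The Benjamini-Hochberg adjusted p threshold was 0.05. Group means are geometric. Values are mean ± SD for the control ratios and log2 fold change ± SE for genes, and the 3 arrays of a group limit the precision. The 3'/5' ratios were compared by exact two-sided permutation test. The script was tested on simulated data. No 2 arrays held the same values.

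Named genes were the 12 largest rises and falls plus, per gene list, the members with the smallest p and a fixed set of reference genes. The rises and falls were limited to called genes with a minimum mean signal in either group and no overlap of arrays. Predicted, RIKEN, LOC and Gm genes were left out of them. Other list members are given by their values and were picked after these were seen. The comparison, the 42 gene lists (36 pathway and 6 marker lists) and these rules were chosen with earlier results of these data known. Promoter windows of 300 bases came from RefSeq's mouse table (GRCm38.p6), in which 10237 of the tested genes have an entry. Nothing in the labels says whether replicate numbers pair the arrays, and they were not used in the main fit. Deviations of same-numbered arrays correlated weakly, at r = 0.101, 0.102 and 0.028. Those of arrays with different numbers correlated at -0.112 to 0.009. Alternatives covered the pseudocount, filter, normalization, probe set choice, fit, scaling target, control ratios and each array left out.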

Additional observations from a re-analysis of the deposited data

How the results depend on the processing

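Of 2875 higher and 2330 lower genes, counts stayed within 1.5 times under most of 29 alternatives. Exceptions were values as deposited (107 higher and 146 lower), median centring (1525 higher), each kept probe set by itself (4916 and 4435 of 27022), arrays with a target of 250 (1634 higher), the actin ratio as a covariate (1241 and 1216), the Gapdh ratio (1380 and 1327), DPI + DNFB replicate 2 alone for its group (1586 higher) and an added 2-fold limit (888 and 742). The causes were not tested, except that the deposited arrays differ in scale by construction and the probe set fit tests more features. Leaving out single arrays gave 2459 to 2834 higher and 2063 to 2366 lower. With replicate number as a block, counts were 3124 and 2456. Each array correlated best with its own number, if weakly, and whether the numbers pair the arrays is not known. Of 202 named genes called, 50 were called under every one of 27 alternatives that tested them (10 of these 50 were left out by the 60th percentile filter); values as deposited ended 144 of the calls, the actin covariate 41 and the Gapdh covariate 32. The mean of kept probe sets turned the sign of Ncf1 (log2 -0.044, adjusted p = 0.801) and Derl1 (log2 -0.12, adjusted p = 0.325). Another kept probe set pointed the opposite way in 925 of 2851 called genes that have one. In 147 genes such an opposite probe set was itself called. Among named genes 16 had an opposite probe set, such as Nr4a2, Tlr4, Pfkl, Acly and Sc5d.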

Other observations

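Of 12 genes for metallothioneins and zinc transporters of both the Slc30 and Slc39 families, 7 were lower with DPI + DNFB and none higher. The median was -0.343, against 0.141 over all genes, and 4 were lower with the actin covariate. Slc30a1, the zinc exporter ZNT1 that zinc itself induces, had 288, 739 and 409 with DPI + DNFB against 2222, 2272 and 2015 with H2O2 (limma, log2 -2.25 ± 0.232, adjusted p = 3.82e-07). The groups did not meet, and DPI + DNFB replicate 2 was the highest of its group. Of 31 proteasome genes 13 were lower and 3 higher, among them the regulatory subunit Psmd12, with 2142, 2754 and 2286 for DPI + DNFB and 4792, 5344 and 5073 for H2O2 (log2 -1.08 ± 0.111); with the actin covariate 5 were lower and 0 higher. Of 32 ribosome biogenesis genes 12 were lower and 4 higher, led by Nip7 (-1.79) and Rrs1 (-1.43), which act in large subunit assembly; with the actin covariate 7 were lower and 0 higher.

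Mmp12, macrophage elastase, had 215, 265 and 275 with DPI + DNFB against 1473, 1299 and 1609.6 with H2O2 (log2 -2.47 ± 0.174), and Plau (-1.54) and Plaur (-1.66), the urokinase and its receptor, and Adam8 (-2.14) were lower; of the 23 matrix and adhesion genes 8 were lower and 3 higher. Of 11 prostaglandin and leukotriene genes 5 were higher and 2 lower, against 3 and 3 with median centring. Alox5, 5-lipoxygenase, was higher (1.04), as were Lta4h (0.74) and Ltc4s (0.88), whose calls ended with the actin covariate, while the prostaglandin receptor Ptger4 was lower (-1.79). Ahrr, the repressor of the aryl hydrocarbon receptor, had 275, 326 and 383 with DPI + DNFB against 757, 1164 and 1203 with H2O2 (log2 -1.61 ± 0.191). In the FOXO-linked list 6 of 21 were higher and 5 lower (28.6% and 23.8%, against 22.6% and 18.3% over all genes). Its cyclin gene Ccng2 had 6234, 6042 and 5775 with DPI + DNFB against 1228, 1461 and 1425 with H2O2 (log2 2.12 ± 0.105, adjusted p = 3.94e-11), and the DPI arrays had a mean of 6255. Of 14 BCL2 family genes 3 were higher and 4 lower (21.4% and 28.6%, against 22.6% and 18.3% over all genes), and 3 and 6 with median centring. Both Mcl1 (lower, -2.1) and Bcl2 (higher, 1.2) protect cells from apoptosis.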
